A study of Gallus gallus with 6 samples.

Results

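The 50 transcripts described here are chicken transcripts whose read estimates were taken as unambiguous. Their level was higher in the otocyst cultured with IWR-1 than in the control otocyst of the same embryo, in each of 3 embryos. They were chosen from these same values. A transcript qualified if its estimated count lay within 0.001 of a whole number in all 6 libraries. This was read as none of its reads having been divided between targets, which was not checked on the reads. Its mean level had to reach 5 CPM (the count scaled to the library total), and log2((IWR-1 CPM + 0.5)/(DMSO CPM + 0.5)) had to be 0.5 or higher in all 3 pairs. Of 25752 targets, 25747 were Ensembl chicken transcripts, and 11819 of these were whole-number transcripts. The 11819 include transcripts at 0 in every library, and 9111 of them had an estimate above 0. Of the whole-number transcripts, 4939 reached 5 CPM. The 50 that met the rule made up 1.01% of the 4939. They are called the rising transcripts below, a name that stands for the rule and not for a test.

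Otocysts are the vesicles that give rise to the inner ear. Each of the 6 libraries came from 1 otocyst of a White Leghorn chicken embryo at embryonic day 2.5, freed of mesenchyme and kept free floating for 24 h. The age is that of the sample labels, whereas the series' design text calls the explants E3. The IWR-1 group (n = 3) held the right otocysts of embryos 35, 39 and 40, cultured with 300 µM IWR-1. The DMSO group (n = 3) held the left otocysts of the same embryos, cultured with the solvent, so treatment and body side cannot be told apart. No genetic change is given for either group, and no uncultured otocyst was analysed here. The libraries held 10060014 to 15217029 estimated counts. The difference between target length and effective length, which follows the mean fragment length, was shortest in embryo 39 under DMSO, at 182 bases, and next shortest in embryo 40 under IWR-1, at 192 bases. The remaining 4 libraries lay at 211 to 212 bases.

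Wnt ligands bind Frizzled receptors and LRP co-receptors and thereby halt a complex built on Axin that marks beta-catenin for degradation. Beta-catenin then accumulates, enters the nucleus and switches on genes together with TCF and LEF factors. IWR-1 stabilises Axin, which keeps that complex active and beta-catenin low. In the otocyst, Wnt signals from the dorsal hindbrain are known for their part in dorsal patterning, from which vestibular structures arise.

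The deposited tables give transcript identifiers without gene names, and the gene table used here carries no Ensembl identifiers. That 0 of the 50 were matched to a name follows from this and does not show that they lack names. No gene, role, gene position or sequence is therefore assigned to any of the 50, and the labelled tissue could not be checked against marker genes. By the naming rule 2 of the 50 are given by identifier, and the others by their rank. Rank 1 is the transcript whose smallest ratio over the 3 embryos was the largest.

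The transcript of rank 1 was ENSGALT00000007915.5, 3294 bases long. In the IWR-1 libraries of embryos 35, 39 and 40 it had 112, 181 and 169 counts, or 7.48, 14.0 and 11.6 CPM. In the DMSO libraries of the same embryos it had 18, 3 and 24 counts, or 1.41, 0.197 and 2.39 CPM. The groups did not overlap, and the DMSO library of embryo 39 was the lowest of the 6. The IWR-1 libraries averaged 11.0 ± 3.27 CPM and the DMSO libraries 1.33 ± 1.10 CPM (SD, n = 3 each), an 8.27-fold difference. With the 0.5 that the rule adds, the log2 ratios of embryos 35, 39 and 40 were 2.06, 4.37 and 2.07. Without it, the CPM ratio within an embryo was 5.30 in embryo 35 (exact 95% interval 3.21 to 9.27) and 4.86 in embryo 40 (3.16 to 7.80). In embryo 39 it was 70.8 (23.8 to 346.3), a value that rests on 3 counts in DMSO. These intervals cover counting error only and treat each read as independent. Reads copied by PCR are not independent molecules, so the intervals may be too narrow even for that. Per unit of length its level was 4.46 ± 1.28 TPM under IWR-1 and 0.531 ± 0.443 TPM in DMSO (SD, n = 3 each). TPM is the authors' value, the count divided by effective length and scaled to the sum of such values over all targets.

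The transcript of rank 2 was ENSGALT00000002918.4, 1852 bases long. It had 203, 354 and 279 counts in the IWR-1 libraries of embryos 35, 39 and 40, or 13.6, 27.3 and 19.1 CPM. It had 52, 94 and 59 counts in the DMSO libraries, or 4.08, 6.18 and 5.86 CPM. The lowest IWR-1 library lay above the highest DMSO library, and embryo 39 had the highest level in both groups. The group means of CPM differed 3.72-fold. Per unit of length, the IWR-1 libraries averaged 15.2 ± 5.09 TPM and the DMSO libraries 3.95 ± 0.802 TPM (SD, n = 3 each). The ratio was 3.33 in embryo 35 (exact 95% interval 2.44 to 4.60), 4.42 in embryo 39 (3.51 to 5.61) and 3.26 in embryo 40 (2.46 to 4.40). The 3 intervals overlapped.

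Below these 2, a further 5 transcripts had a smallest log2 ratio of 1 or more, in the ratio that the rule uses. Over the 7, the fold difference between group means ran from 2.42 to 8.27, with a median of 3.06, and mean levels ran from 5.70 to 42.2 CPM. The most abundant of the 7 was that of rank 5, 934 bases long. It measured 58.3, 56.8 and 70.4 CPM in IWR-1 and 23.3, 24.1 and 20.2 CPM in DMSO for embryos 35, 39 and 40. Its groups lay far apart, at 61.8 ± 7.47 and 22.5 ± 2.05 CPM (SD, n = 3 each). The transcript of rank 3, 12633 bases long, was rare per unit of length, at 0.882 ± 0.246 TPM in IWR-1 and 0.263 ± 0.130 TPM in DMSO (SD, n = 3 each).

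The other 43 transcripts stayed under a log2 ratio of 1 in at least 1 embryo. In 10 of them the smallest log2 ratio lay between 0.75 and 1, with a median fold of 2.23 between group means. In 33 it lay between 0.5 and 0.75, with a median fold of 1.77. Over all 50 the fold of the group means ran from 1.496 to 8.27 with a median of 1.90, and it was 2 or more in 18. Just inside the threshold, the 3 lowest of the 50 had smallest log2 ratios of 0.501, 0.504 and 0.509. The 3 nearest transcripts outside it had 0.499, 0.495 and 0.486, so the edge of the set falls within a continuous range. At the lower limit of abundance, the 2 rarest of the 50 averaged 5.05 and 5.20 CPM. A transcript left out at 4.99 CPM had a smallest log2 ratio of 0.61. In total 78 whole-number transcripts met the ratio rule but stayed under 5 CPM.

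**Figure D1:**
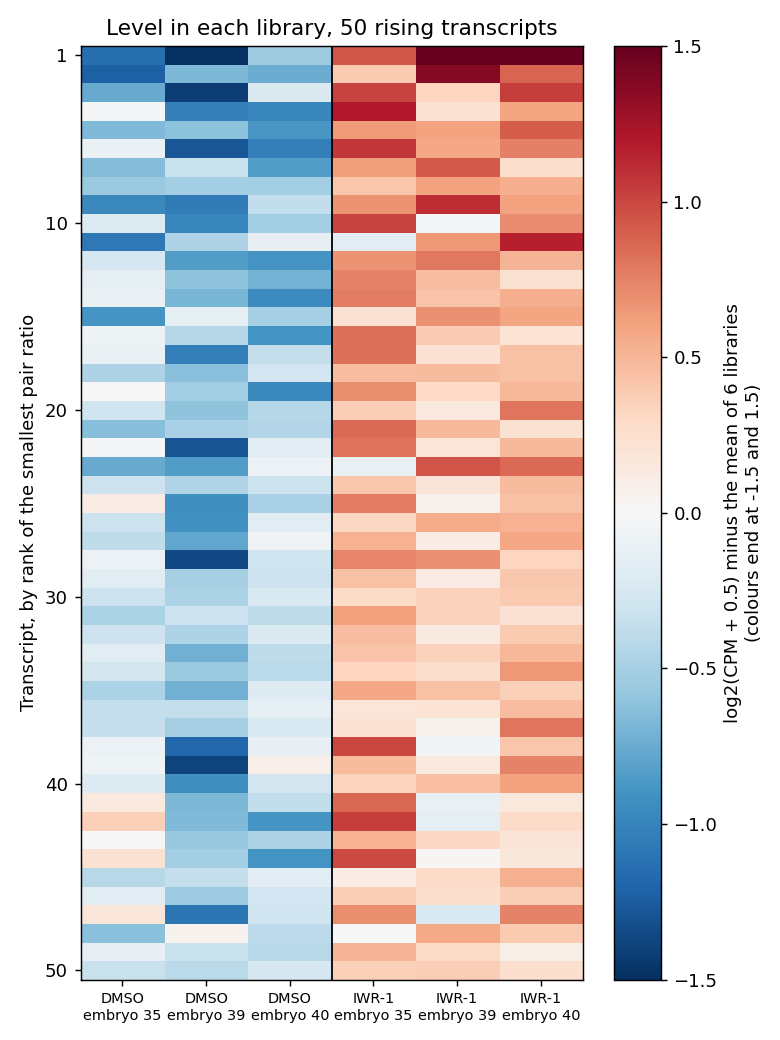
Level of each of the 50 transcripts (rows, ranked by the smallest ratio) in the 6 libraries (columns), as log2(CPM + 0.5) minus the mean over the 6 libraries of that transcript, with red above and blue below the mean. The left 3 columns are mostly blue and the right 3 mostly red, which the rule requires. The DMSO library of embryo 39 holds the lowest DMSO level of 32 of the 50, or 64%, against 49.3% of the 4939. The DMSO levels enter the rule, so nothing is read from this difference.

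The heat map of levels shows that the 50 did not share a single pattern across embryos. In 42 of the 50 every IWR-1 level exceeded every DMSO level, so that the groups did not overlap. Among all 4939 comparable transcripts, 10.9% had an IWR-1 group lying wholly above DMSO, but the rule asks for a higher level in each pair and nothing is read from the difference. In the remaining 8 the groups overlapped, and the pairs differed in level from embryo to embryo. The transcript of rank 42, 1502 bases long, measured 146.9, 64.9 and 86.7 CPM in the IWR-1 libraries of embryos 35, 39 and 40 and 91.5, 44.8 and 38.5 CPM in the DMSO libraries. Embryo 35 was the highest in both groups, and its DMSO level lay above the IWR-1 levels of the other 2 embryos. The transcript of rank 11 went the other way, with 5.35, 9.71 and 14.1 CPM in IWR-1 and 2.59, 4.21 and 5.47 CPM in DMSO, lowest in embryo 35 in both groups.

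The size of the ratio also varied between embryos. The gap between the largest and the smallest log2 ratio of a transcript had a median of 0.45 over the 50 and of 0.53 over the 4939. The rule holds every ratio of the 50 at 0.5 or higher, so nothing is read from this difference. It was under 0.25 in 11 transcripts and over 1 in 5. The most even transcript was that of rank 36, 2511 bases long, with 52.6, 53.3 and 64.0 CPM in IWR-1 and 35.9, 35.9 and 41.8 CPM in DMSO, and log2 ratios from 0.55 to 0.61. The most uneven was that of rank 1, described above, followed by that of rank 28, 1375 bases long. The latter measured 8.02, 7.78 and 5.90 CPM in IWR-1 and 4.31, 1.51 and 3.68 CPM in DMSO, and its log2 ratios ran from 0.62 to 2.04. Its DMSO level was lowest in embryo 39, at 23 counts, against 55 in embryo 35 and 37 in embryo 40. The part of counting error in its uneven ratios was not tested.

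**Figure D2:**
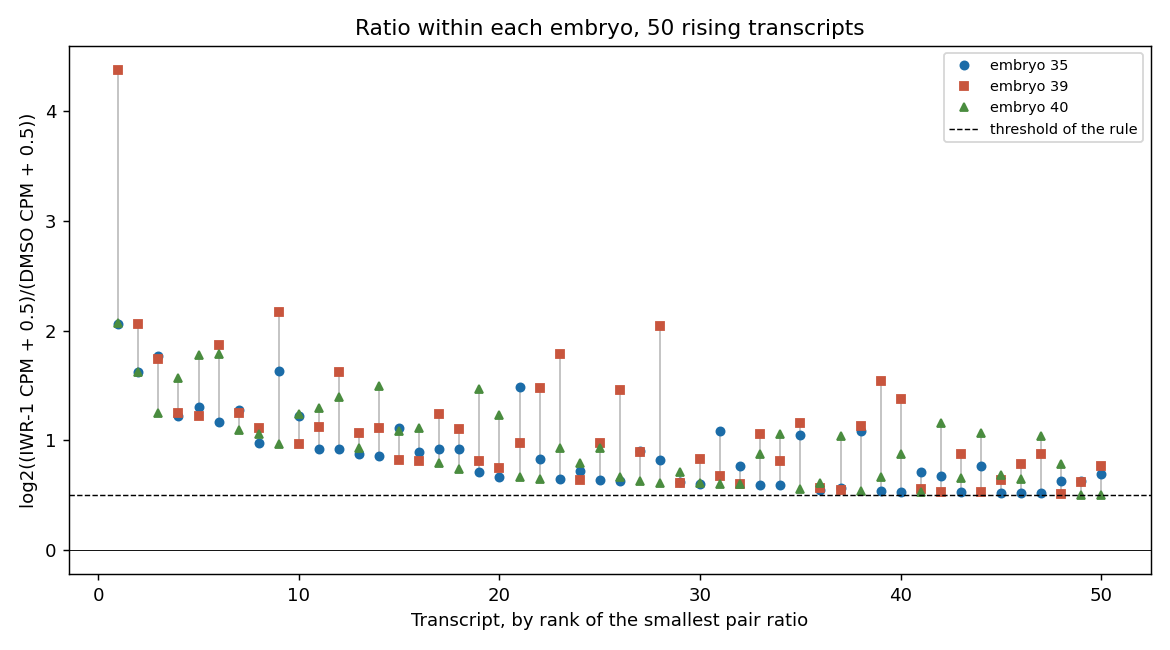
Ratio of IWR-1 to DMSO within each embryo, log2((IWR-1 CPM + 0.5)/(DMSO CPM + 0.5)), for the 50 transcripts in order of rank, with a grey line from the smallest to the largest ratio and the threshold of 0.5 dashed. Embryo 39 (squares) gave the largest ratio in 23 transcripts, or 46%, against 46.2% of the 4939 comparable transcripts. Embryo 35 (circles) gave the smallest in 24, or 48%, against 33.6%. The rule acts on these ratios, so nothing is read from the differences in share.

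As the plot of ratios by embryo shows, embryo 39 gave the largest ratio in 23 of the 50, or 46%, against 46.2% of the 4939. Embryo 40 gave it in 18, or 36%, against 30.6%, and embryo 35 in 9, or 18%, against 23.2%. The smallest ratio lay in embryo 35 in 24 of the 50, or 48%, against 33.6%. The rule acts on these same ratios, so the shares are a description and nothing is read from their differences. The median log2 ratio of the 50 was 0.80 in embryo 35, 0.98 in embryo 39 and 0.90 in embryo 40. Over the 4939 comparable transcripts these medians were 0.01, 0.11 and 0.01. Summed over the 50, the level was 3030, 2680 and 2749 CPM in IWR-1 and 1578, 1375 and 1500 CPM in DMSO for embryos 35, 39 and 40. The 50 together took 0.137% to 0.303% of the counts of a library. Because a whole otocyst was sequenced, a higher level from more cells of a type and one from more RNA per cell cannot be told apart.

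The 3 embryos did not restrict the set equally. Among the 4939 transcripts, 1229 reached a log2 ratio of 0.5 in embryo 39, or 24.9%, against 592 in embryo 40 and 234 in embryo 35. For a fall of the same size the numbers were 458, 335 and 317. The excess of higher values in embryo 39 grew with transcript length. Of transcripts of 3000 bases or more, 46.7% reached 0.5 in embryo 39, with a median log2 ratio of 0.46, against 14.8% of those under 1500 bases, with a median of -0.08. In embryo 35 the shares were 4.71% and 4.32%, and in embryo 40 they were 13.8% and 13.6%. The median log2 ratios of these classes in embryo 40 were -0.01 and 0.07. Abundance went with the shares as well. Of transcripts under 20 CPM, 34.9% reached 0.5 in embryo 39, with a median log2 ratio of 0.25. Of those of 100 CPM or more, 12.6% did, with a median of -0.02. In embryo 40 these shares were 20.6% and 4.49%, and in embryo 35 they were 9.62% and 2.11%. The parts of length and abundance were not separated. The DMSO library of embryo 39 is the one with the shortest fragments, and its part in the ratios of the 50 was not tested. When the ratio was asked of 2 embryos only, 100 of the 4939 transcripts reached it in embryos 35 and 40, 278 in embryos 39 and 40, and 114 in embryos 35 and 39.

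**Figure D3:**
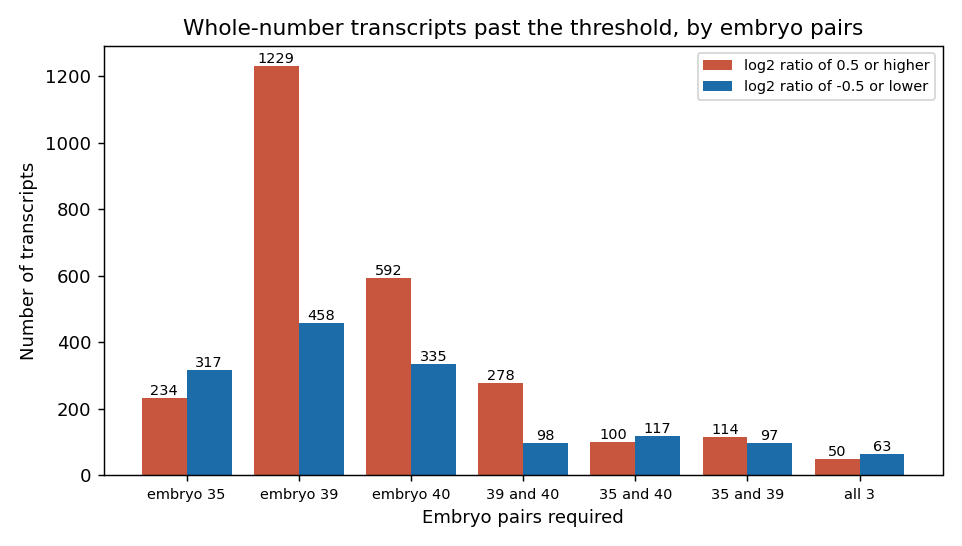
Number of the 4939 whole-number transcripts of at least 5 CPM (vertical axis) with a log2 ratio of 0.5 or higher (red) or of -0.5 or lower (blue), when the threshold is required in 1 embryo, in 2 or in all 3 (horizontal axis). Higher transcripts outnumber lower ones most in embryo 39, at 1229 against 458, whereas 50 and 63 remain when all 3 embryos are required.

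Length did not set the 50 apart to the same degree. Their median length was 2172 bases, with quartiles of 1326 and 3020, against 1917 bases, with quartiles of 1307 and 2801, over the 4939. They ran from 459 to 16506 bases. By length, 16 of 1643 transcripts under 1500 bases were among the 50, 21 of 2235 from 1500 to under 3000 bases, and 13 of 1061 longer ones, or 0.974%, 0.94% and 1.23%. Transcripts lower by 0.5 in all 3 embryos, of which there were 63, took 1.22%, 1.79% and 0.283% of the same classes. Among transcripts of 3000 bases or more, 13 were thus higher and 3 lower in all 3 embryos. The 13 long ones had a median log2 ratio of 0.97 in embryo 35, of 1.06 in embryo 39 and of 1.07 in embryo 40, values that the rule holds at 0.5 or higher.

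Most of the 50 were of low abundance. Of the 50, 30 averaged under 20 CPM, 15 lay from 20 to under 100 CPM and 5 reached 100 CPM. Over the 4939 these classes held 28.0%, 49.0% and 23.0%. The median mean level of the 50 was 14.9 CPM, against 41.6 CPM over all 4939 and 19.5 CPM for the 63 falling ones. In the lowest class 2.17% met the rule and 2.46% fell by the same size, and in the highest class the shares were equal, at 0.44%. In 10 of the 50 at least 1 library had fewer than 50 counts, while in 24 every library had 100 or more.

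**Figure D4:**
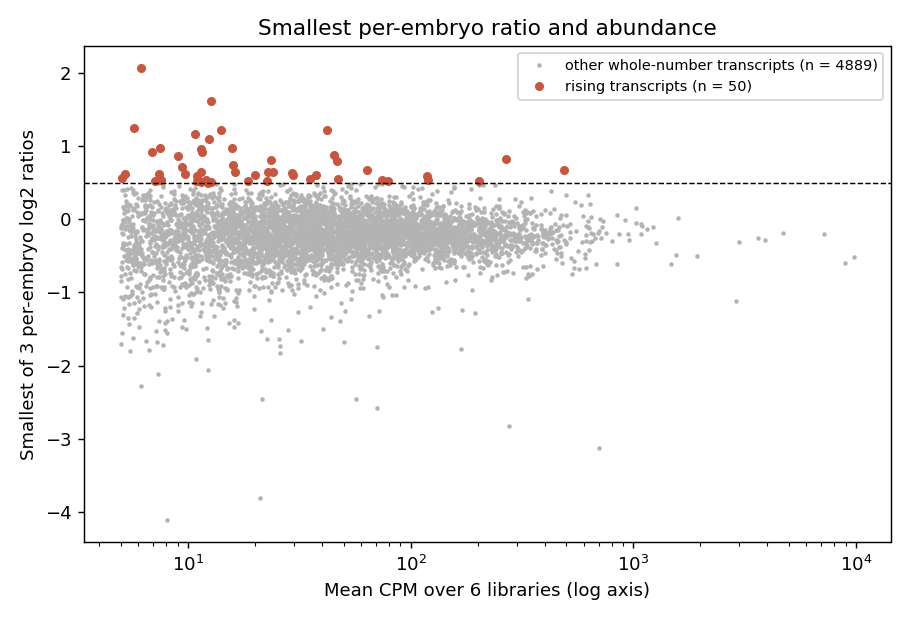
Smallest of the 3 per-embryo log2 ratios (vertical axis) against the mean CPM over 6 libraries (horizontal, log axis) for the 4939 whole-number transcripts, with the 50 rising transcripts in red and the threshold of 0.5 dashed. Most of the red points lie under 20 CPM, and 5 lie at 100 CPM or more.

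The 5 abundant transcripts had 876 to 12232 counts in a library. The highest was that of rank 21, 2210 bases long, with 817.3, 639.0 and 531.0 CPM in the IWR-1 libraries of embryos 35, 39 and 40 and 291.6, 325.2 and 334.1 CPM in the DMSO libraries. The IWR-1 libraries averaged 662.4 ± 144.5 CPM and the DMSO libraries 316.9 ± 22.4 CPM (SD, n = 3 each). The ratio fell short of doubling in embryos 39 and 40. The next, that of rank 15 with 3457 bases, measured 291.8, 401.2 and 374.4 CPM in IWR-1 and 134.8, 226.7 and 176.0 CPM in DMSO. Here embryo 39 had the highest level in both groups, and the groups did not overlap. The transcript of rank 46 was the longest of the 50, at 16506 bases. It measured 255.4, 234.3 and 254.7 CPM in IWR-1 and 177.7, 135.8 and 162.2 CPM in DMSO, with a 1.56-fold difference between the means. Per unit of length it was not abundant, at a mean of 19.1 TPM in IWR-1 and 11.8 TPM in DMSO. The other 2 abundant ones, of ranks 33 and 40, had means of 152.0 ± 8.05 and 156.1 ± 14.8 CPM under IWR-1, against 85.4 ± 16.1 and 83.5 ± 21.2 CPM under DMSO (SD, n = 3 each).

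The spread among embryos within a group was larger for the 50 than for comparable transcripts. The median SD of log2(CPM + 0.5) over the 3 DMSO libraries was 0.36 for the 50 and 0.27 for the 4939. Over the 3 IWR-1 libraries it was 0.25 and 0.16. For the 63 falling transcripts it was 0.34 in either group, so a larger spread was not particular to the 50. The 50 were also rarer than the 4939, as given above, and the part of abundance in this spread was not tested. DMSO was the more variable group in 31 of the 50, or 62%, and in 72.4% of the 4939. The DMSO level was lowest in embryo 39 in 32 of the 50, or 64%, against 49.3% of the 4939, and highest in embryo 35 in 26, or 52%, against 30.2%. For the 63 falling transcripts these shares were 28.6% and 7.94%. The DMSO levels enter both rules, so nothing is read from these differences.

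Transcripts with divided reads were left out by the rule, and they met the ratio condition more often. Of 7091 such transcripts of at least 5 CPM, 161 were higher by 0.5 in all 3 embryos, or 2.27%, against 1.01% of the whole-number ones. For falls of the same size the shares were alike, with 90 of 7091, or 1.27%, and 63 of 4939, or 1.28%. The difference in shares was not tested, since transcripts that divide reads are not independent of each other.

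The 50 were also read off the fit over the whole table, as a description only, since the rule used the same contrast. All 50 were among the 16524 targets tested with edgeR's quasi-likelihood test. Their log2 fold changes ran from 0.51 to 3.03 with a median of 0.86, against a median of -0.01 over all 16524. The value was 3.03 (SE 0.75) for ENSGALT00000007915.5 and 1.82 (SE 0.35) for ENSGALT00000002918.4. None of the 50 had an adjusted p under 0.05 (edgeR, Benjamini-Hochberg adjustment over all targets), and 0% of all targets tested were called higher. At an unadjusted p under 0.05, 41 of the 50 and 610 of all targets, or 3.69%, were higher. DESeq2 called 15 of the 50, against 98 of 16524 or 0.593% in all. With the embryo as a replicate block it called 14, against 137 or 0.829%. When edgeR was fitted on the 6371 whole-number targets alone, 1 of the 50 was called, that of rank 5, against 0.0157% of the targets. Together with the embryo block that fit called 29 of the 50, against 85 of 6371 or 1.33%, and the 29 included all 23 of the highest ranks. On all 16524 targets, edgeR with the embryo block called 0 of the 50, against 0% of the targets called higher. Nothing is read from these shares, but the number of calls among the same 50 depended on the fit, from 0 to 29.

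On the 2 other scales computed for the ratios, TMM-scaled CPM and TPM, each of the 50 stayed higher in each embryo. For TMM this followed from the rule, since the scaling moves all ratios of an embryo by nearly the same small amount. TPM is computed from the same counts, so neither scale is a separate check. With TMM scaling, which lowers the ratio of embryo 39 by 0.16 on the log2 scale, the smallest ratio of any of the 50 was 0.36, and 37 kept a ratio of 0.5 in all 3 embryos. With the authors' TPM the smallest ratio was 0.47, and 48 kept a ratio of 0.5 in all 3 embryos, with no minimum set on the TPM level.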

How the data were processed

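Single otocysts were sequenced after SMART-Seq v4 amplification and Nextera XT library preparation, per the labels' protocols. The authors deposited 1 table per library with estimated counts and TPM per transcript, per the file headers, and not normalized in the case of the counts. The submitters' processing notes name bcl2fastq and kallisto, without versions. The transcript set, build and read filters are not given in the sources used here.

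CPM used the total of the estimated counts. For the fit across all targets, estimated counts were rounded. Targets passed filterByExpr with a count of 10 and a total of 15 as its minimums. After TMM scaling the quasi-likelihood test of edgeR 4.0.16 (R 4.3.3) was run without a covariate, with Benjamini-Hochberg adjustment. Alternatives were DESeq2 1.42.0 and, on the TPM scale, limma 3.58.1 with a pseudocount of 1 or 0.1 before taking log2. Otocysts were paired by the embryo numbers 35, 39 and 40 in the sample titles, where R and L share a number. Deviations from the group means correlated at 0.11, 0.11 and 0.08 within these pairs. Between otocysts of unlike numbers the values ran from -0.08 to -0.03. Deviations sum to 0 within a group, which ties these values to each other, and the pairing was not tested. That these numbers are embryos is read from the titles. If otocysts of a group were not from separate embryos, p-values measure only the spread between samples.

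The 50 transcripts and all lists were chosen with earlier results of these data known. The rule for naming was the 2 highest ranks where identifiers carry no gene symbols. Lists of Wnt, otic and cell type genes were not used, because no identifier could be matched to a name.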

Additional observations from a re-analysis of the deposited data

How the results depend on the processing

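The number of transcripts that met the rule was 50 in the analysis as given. It was 37 with TMM scaling, all among the 50, where the scaling lowers the ratios of each embryo and so can hardly add transcripts. It was 71 with TPM in place of CPM for both the ratio and the minimum mean of 5, which kept 41 of the 50. Pseudocounts of 0.1 and 1 gave 52 and 46, a minimum mean of 10 CPM gave 38, and tolerances of 0.0001 and 0.01 gave 50 each. It moved by more than 1.5 times with a minimum of 1 CPM (96), with a threshold of 0.4 (89) and with a threshold of 1 (7). Leaving out an embryo, with the mean level taken over the 4 libraries left, gave 106 to 276. This asks for fewer pairs and also moves the mean, and 48 to 50 of the 50 were kept.

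Over all targets, edgeR called 1 transcript, lower in IWR-1, and also 1 with the embryo as a replicate block. The count was 4 with 10 counts in every sample, 7 on whole-number targets, 177 on whole-number targets with the replicate block, 195 with DESeq2, 261 with DESeq2 and the replicate block, and 2 with limma on log2(TPM + 1). The cause was not tested. Leaving out a library gave 0 to 1, with 780 to 1767 at an unadjusted p under 0.05, and each of the 3 fits lacking an IWR-1 library gave 0. The log2 fold change of ENSGALT00000007915.5 lay between 1.85 and 3.73 over 16 alternatives, and that of ENSGALT00000002918.4 between 1.53 and 2.03 over 17. The 1.85 came from limma on log2(TPM + 1), where a pseudocount of 1 exceeds the mean DMSO level of 0.531 TPM. With a pseudocount of 0.1 limma gave 3.16, and the next lowest value was 2.51, without the DMSO library of embryo 39. ENSGALT00000007915.5 had 3 counts in a library and so gave no value with 10 counts in every sample. Depth limits the rarest of the 50, 10 of which had a library under 50 counts.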
